A study of Rattus norvegicus with 28 samples.

Results

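The subunits of the mitochondrial respiratory chain and of ATP synthase were followed in cultured rat microglia and astrocytes, separately for the genes that lie in the nucleus and for those that lie on mitochondrial DNA. Members were taken by name: symbols of the Nduf, Sdh, Uqcr, Cox4 to Cox8 and Atp5 series for the nuclear set and the Mt-nd, Mt-co, Mt-cyb and Mt-atp genes for the mitochondrial set, without pseudogene names. They numbered 107 of the 28459 symbols in the count tables, 94 nuclear and 13 mitochondrial, and 79 were listed in all 3 tables (1 for microglia, 1 for each astrocyte set). Nuclear members numbered 80 among microglial symbols, 80 in the astrocyte ENV set and 79 in the astrocyte LPS set. All 13 mitochondrial genes were listed everywhere.

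Cortices of Wistar rats aged 1 postnatal day gave mixed cultures that were kept for 10 days in flasks; microglia were then shaken off and selected with CD11b/c magnetic beads. The 8 groups were microglia with HERV-W ENV (3 libraries) and their buffer controls (3), microglia with LPS (3) and their H2O controls (3), astrocytes with ENV (4) and with buffer (4), and astrocytes with LPS (4) and with H2O (4). HERV-W ENV is the envelope protein of a human endogenous retrovirus, given as recombinant protein at 1 µg/ml; LPS, a bacterial cell wall component that activates innate immune cells, was given at 100 ng/ml. Stimulation began 1 day after isolation in microglia and 3 days after it in astrocytes, in medium with 10% FCS, which every group shared. No genotype or strain differed between groups, and the labels give neither the length of stimulation nor whether replicates came from separate animals, so the p-values rest on a spread between libraries that may be technical only.

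The respiratory chain passes electrons from NADH through complex I, or from succinate through complex II, to complex III and complex IV, and the proton gradient it builds drives ATP synthase (complex V). Complexes I, III, IV and V are built from subunits of both genomes, while complex II is wholly nuclear; mitochondrial DNA encodes a few hydrophobic core subunits, and its messages are made from long transcripts that are cut at the tRNAs between them. Macrophage-lineage cells are known for shifting between respiration and glycolysis on activation.

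Libraries held 23742228 to 42724111 counts, and CPM below are counts scaled to the library total. The 8 microglia and macrophage markers summed to 4818 to 7443 CPM in the microglial libraries and to 37.4 to 492 CPM in the astrocyte libraries; the 8 astrocyte markers summed to 2348 to 11142 CPM in astrocytes and 24.4 to 290.4 CPM in microglia. In these bulk samples fewer cells of a type and less RNA per cell cannot be told apart. Replicates 3 and 4 of the astrocyte ENV and LPS sets were close to each other across the sets. The chi-square per degree of freedom over genes was 20.3 between ENV 3 and LPS 3, 6.51 between ENV 4 and LPS 4, 4.72 between buffer 3 and H2O 3, and 3.58 between buffer 4 and H2O 4. Replicates within an astrocyte group gave 20.7 to 306. The ENV and LPS comparisons in astrocytes are therefore not independent of each other. Among microglia, replicate 3 of LPS (21.6 CPM) and of H2O (102.5 CPM) had more summed oligodendrocyte-lineage transcripts than the other libraries of their groups (5.01 and 5.27 CPM with LPS, 15.6 and 15.9 CPM with H2O).

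The 13 mitochondrial transcripts together took a smaller share of the library in stimulated microglia. They made up 1.90 ± 0.36% of counts with ENV and 2.96 ± 0.537% with buffer (SD, n = 3 each), and the 3 ENV libraries (1.57, 1.85 and 2.28%) lay below the 3 buffer libraries (2.49, 2.84 and 3.55%). With LPS the share was 1.45 ± 0.0826%, against 2.84 ± 0.119% with H2O (SD, n = 3 each). The LPS libraries (1.54, 1.39 and 1.41%) lay far from the H2O libraries (2.80, 2.97 and 2.74%). The changes came to -0.64 and -0.97 on the log2 scale, with 3 of 3 same-numbered pairs lower in each comparison. Each exact permutation test (2-sided) gave p = 0.1, the smallest that 3 against 3 libraries allow, and 0.171 after Benjamini-Hochberg adjustment over the 12 sums tested. Per effective library size after TMM, which sets the bulk of genes level, the ENV libraries (1.76, 1.94 and 2.40%) overlapped the buffer libraries (2.35, 2.55 and 3.40%), with a log2 change of -0.44 (exact permutation p = 0.2). On that scale the LPS libraries (1.49 to 1.78%) still lay below the H2O libraries (2.39 to 2.70%).

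In astrocytes the mitochondrial share differed by less than the spread between replicates. It was 2.17 ± 0.393% with ENV and 2.06 ± 0.29% with buffer (SD, n = 4 each; exact permutation p = 0.686, adjusted over 12 sums 0.714). It was 2.16 ± 0.704% with LPS and 1.98 ± 0.466% with H2O (SD, n = 4 each; exact permutation p = 0.714, adjusted 0.714). Replicate 1 had the highest share in all 4 astrocyte groups, 2.68% with ENV, 2.44% with buffer, 3.14% with LPS and 2.41% with H2O.

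The nuclear members together were a smaller share in every stimulated group, and in astrocytes treated and vehicle libraries did not overlap. In astrocytes they made up 0.753 ± 0.0488% of counts with ENV and 0.85 ± 0.0389% with buffer, and 0.765 ± 0.0125% with LPS and 0.854 ± 0.0274% with H2O (SD, n = 4 each). Each treated library lay below each vehicle library, closely with ENV (0.813% at most against 0.815% at least with buffer). All 4 pairs were lower in both comparisons, with log2 changes of -0.18 for ENV and -0.16 for LPS; each exact permutation p was 0.0286, the smallest 4 against 4 libraries allow, and 0.171 adjusted over the 12 sums. In microglia the share was 0.808 ± 0.0608% with ENV against 0.896 ± 0.125% with buffer (exact permutation p = 0.4, adjusted 0.514), and 0.551 ± 0.0372% with LPS against 0.663 ± 0.0709% with H2O (exact permutation p = 0.1, adjusted 0.171; SD, n = 3 each). The direction in microglia rests on the scaling: per effective library size the nuclear sum changed by 0.06 with ENV and by 0.04 with LPS on the log2 scale.

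The ratio of mitochondrial to nuclear counts within a library does not depend on scaling. In microglia it was 2.12, 2.18 and 2.73 with ENV against 3.11, 3.34 and 3.42 with buffer, and 3.00, 2.36 and 2.56 with LPS against 4.52, 4.75 and 3.68 with H2O. Neither pair of groups overlapped, and the log2 changes were -0.50 and -0.71 (exact permutation p = 0.1 each, n = 3 against 3, the smallest possible; adjusted 0.171). In astrocytes the ratio ran from 2.30 to 3.67 with ENV against 2.01 to 2.95 with buffer, and from 2.03 to 4.04 with LPS against 1.62 to 2.93 with H2O. It was higher in 3 of 4 ENV pairs and in 4 of 4 LPS pairs, by 0.24 and 0.26 on the log2 scale (unpaired exact permutation p = 0.286, adjusted 0.429, and p = 0.429, adjusted 0.514). Same-numbered libraries deviated together, and exact permutation within pairs cannot go below 0.25 for 3 pairs or 0.125 for 4. It gave 0.25 for each of the 6 microglial tests, 0.125 for the LPS ratio and both nuclear sums in astrocytes, 0.375 for the ENV ratio, and 0.625 (ENV) and 0.375 (LPS) for the astrocyte mitochondrial sum. Set against each other, the paired log2 changes of the ratio were lower in microglia than in astrocytes by 0.74 for ENV and 0.97 for LPS; exact permutation p was 0.0571 for each, the smallest that 3 pairs against 4 allow, and 0.0857 adjusted over 6 such differences. The summed nuclear change did not differ beyond the spread between pairs (0.03 for ENV, exact permutation p = 0.686, adjusted 0.686; -0.10 for LPS, exact permutation p = 0.343, adjusted 0.411).

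**Figure D1:**
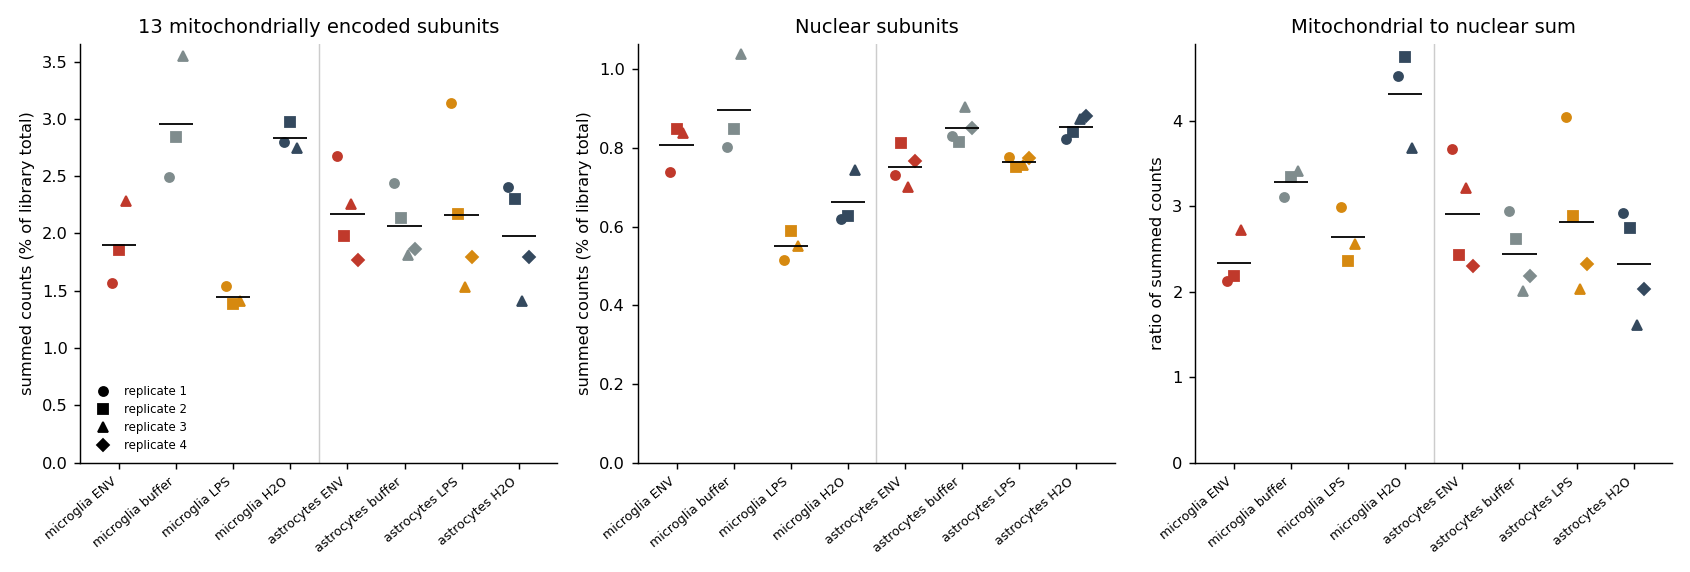
Share of library counts (%) taken by the 13 mitochondrial members (left) and by the nuclear members (middle), and the ratio of the sums (right), for each library of the 8 groups; marker shape gives the replicate number and bars are group means. In microglia the ratio with ENV (2.12 to 2.73) lies below that with buffer (3.11 to 3.42). With LPS (2.36 to 3.00) it lies below that with H2O (3.68 to 4.75). Astrocyte groups overlap with their vehicles in the ratio and the mitochondrial share, and do not overlap in the nuclear share.

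Gene by gene, the mitochondrial messages of ENV microglia were lower in value across all the complexes that they serve. All 13 log2 changes were negative, with a median of -0.59 beside -0.03 over all genes tested, and 5 fell at an adjusted p under 0.05 (edgeR quasi-likelihood test, Benjamini-Hochberg adjustment over all genes, here and below). Across all genes 30.9% were called in either direction and 14.7% were called lower. The largest fall was that of Mt-atp6, which encodes the proton channel subunit a of ATP synthase: 611, 887 and 948 CPM with ENV against 1493, 1721 and 2587 CPM with buffer. The groups did not overlap, and the log2 change was -1.06 ± 0.26 (SE; edgeR adjusted p = 0.0206). Mt-co2, which carries the copper centre that takes electrons from cytochrome c, was at 1038, 1486 and 1595 CPM with ENV against 2304, 2687 and 3548 CPM with buffer (-0.86 ± 0.22, edgeR adjusted p = 0.0251). Mt-co3 (-0.82 ± 0.20), the complex I subunit Mt-nd3 (-0.88 ± 0.21) and Mt-atp8 (-0.85 ± 0.17), the small ATP synthase subunit whose frame overlaps that of Mt-atp6, also fell (edgeR adjusted p = 0.0226, 0.0198 and 0.0102). Mt-co1, the catalytic core of complex IV, changed least: 8349, 9157 and 11703 CPM with ENV against 11028, 12388 and 14476 CPM with buffer, overlapping groups and a log2 change of -0.18 ± 0.18 (edgeR adjusted p = 0.479).

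The other complex I genes and Mt-cyb, the cytochrome b of complex III, did not pass with ENV. Their log2 changes were -0.63 ± 0.25 for Mt-nd1, -0.59 ± 0.20 for Mt-nd2, -0.57 ± 0.23 for Mt-nd4, -0.57 ± 0.29 for Mt-nd6, -0.33 ± 0.14 for Mt-nd5, -0.31 ± 0.21 for Mt-cyb and -0.27 ± 0.18 for Mt-nd4l, with edgeR adjusted p between 0.0622 and 0.292. Same-numbered libraries deviated together, and with the replicate number as a block 9 of 13 were called: Mt-nd1 (edgeR adjusted p = 0.00819), Mt-nd2 (0.00954), Mt-nd4 (0.0133) and Mt-nd6 (0.04) were added. The count rests on few libraries: without ENV replicate 1 or without ENV replicate 2 it was 1. Shares of all genes are given for the main setting alone, here and below. Summed oligodendrocyte-lineage markers moved the same way, 64.9 to 120 CPM with ENV against 186 to 255 CPM with buffer, with 3 of 7 tested markers lower, none higher and none of the 8 at 0; their part in the result was not tested. Summed astrocyte markers were at 114 to 232 CPM with ENV and 235 to 290.4 CPM with buffer, with 1 of 8 lower, none higher and none at 0. Endothelial markers moved the other way, 87.8 to 182 CPM with ENV against 42.8 to 54.8 CPM with buffer (2 of 5 higher, none lower, none at 0). Fibroblast and mural markers were low, 1.81 to 5.63 CPM with ENV against 5.83 to 11.4 CPM with buffer (1 higher and 1 lower of 5 tested, and Rgs5 at 0 in every microglial library). Neuronal markers were at 11.3 to 21.2 CPM with ENV and 14.3 to 36.5 CPM with buffer (1 of 4 tested lower, none at 0). The microglia and macrophage markers summed to 6499 to 7335 CPM with ENV and 6277 to 7443 CPM with buffer, with 3 of 8 higher and 1 lower. The part of these lists was not tested either.

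With LPS the mitochondrial messages of microglia fell too. All 13 log2 changes were negative, with a median log2 change of -0.84 beside -0.02 over all genes tested, and 9 fell, where 29.8% of all genes were called in either direction and 13.8% were called lower. Mt-atp6 was at 444, 394 and 689 CPM with LPS against 1163, 1484 and 1888 CPM with H2O (-1.26 ± 0.28, edgeR adjusted p = 0.0212). Mt-atp8 was at 73.5, 66.4 and 107 CPM with LPS against 185, 247 and 272 CPM with H2O (-1.20 ± 0.24, edgeR adjusted p = 0.0143). Neither pair of groups overlapped. Mt-co3 had the lowest adjusted p (-1.05 ± 0.16, edgeR adjusted p = 0.00689), with 1162, 1040 and 1082 CPM in LPS libraries against 2615, 2903 and 2936 CPM in H2O libraries. Mt-co2 (-1.05 ± 0.23), Mt-nd3 (-0.95 ± 0.20), Mt-nd4 (-0.86 ± 0.15), Mt-nd4l (-0.82 ± 0.14), Mt-cyb (-0.60 ± 0.17) and Mt-nd6 (-0.56 ± 0.15) fell as well, with edgeR adjusted p from 0.00879 to 0.0422.

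Mt-nd2 (-0.84 ± 0.31), Mt-nd1 (-0.78 ± 0.28), Mt-nd5 (-0.47 ± 0.19) and Mt-co1 (-0.47 ± 0.24) did not pass with LPS (edgeR adjusted p = 0.0851, 0.0777, 0.108 and 0.181). With the replicate block the number stayed at 9, with Mt-nd1 and Mt-nd2 in (edgeR adjusted p = 0.0286 and 0.0306) and Mt-cyb and Mt-nd6 out (0.0557 and 0.0605). All 5 genes called with ENV were among the 9 called with LPS. Without H2O replicate 1 the count was 5, without LPS replicate 1 it was 5, without H2O replicate 2 it was 4 and without LPS replicate 2 it was 3. Summed oligodendrocyte-lineage markers were at 5.01 to 21.6 CPM with LPS and 15.6 to 102.5 CPM with H2O, with 1 of 6 tested lower, none higher and none of the 8 at 0. Summed astrocyte markers were at 24.4 to 45.4 CPM with LPS and 62.7 to 282 CPM with H2O, with none of 5 tested called and none at 0. Endothelial markers were at 91.4 to 216 CPM with LPS and 52.9 to 98.4 CPM with H2O (1 of 5 higher), and fibroblast and mural markers at 3.89 to 5.67 CPM with LPS and 6.48 to 10.9 CPM with H2O (2 of 5 tested lower). The microglia and macrophage markers were at 4818 to 7398 CPM with LPS and 6967 to 7229 CPM with H2O (3 of 8 higher, 1 lower), and neuronal ones at 1.07 to 11.1 CPM with LPS and 1.11 to 12.1 CPM with H2O (0 of 2 tested called). The part of these lists was not tested. Without the replicates 3 of both groups 11 of 13 fell. No member's ENV response differed from its LPS response in microglia by the edgeR interaction test, which called none of the 13270 genes (0%; 937 at an unadjusted p under 0.05, or 7.06%, of which 1 was a mitochondrial and 2 were nuclear members; no other tool was run).

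In astrocytes no mitochondrial member passed the edgeR test with either stimulus, where 17.9% of all genes were called with ENV and 5.34% with LPS. At an unadjusted p under 0.05 there was 1 with ENV (32.7% of all genes) and 0 with LPS (20.8% of all genes), and the DESeq2 Wald test called 1 and 0. Their medians were -0.05 with ENV and -0.01 with LPS, beside 0.02 and 0.03 over all genes tested. The genes did not move as a block. In the order in which they lie on vertebrate mitochondrial DNA, the first 4 (Mt-nd1, Mt-nd2, Mt-co1 and Mt-co2) had positive changes and those from Mt-nd3 on negative ones, with both stimuli. The ENV log2 changes were 0.33 ± 0.20 for Mt-nd1, 0.22 ± 0.16 for Mt-nd2, 0.23 ± 0.21 for Mt-co1 and 0.15 ± 0.13 for Mt-co2. They were -0.27 ± 0.11 for Mt-nd3, -0.02 ± 0.24 for Mt-nd4l, -0.15 ± 0.23 for Mt-nd4, -0.14 ± 0.24 for Mt-nd5, -0.29 ± 0.15 for Mt-nd6 and -0.33 ± 0.24 for Mt-cyb.

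Mt-nd1 shows the spread behind these astrocyte values: 1381, 987, 1271 and 795 CPM with ENV against 1017, 946, 805 and 790 CPM with buffer, higher in 4 of 4 same-numbered pairs although the groups overlap. It was also higher in 4 of 4 LPS pairs, at 1610, 1064, 869 and 852 CPM with LPS against 977, 987, 592 and 754 CPM with H2O. Mt-cyb, the last gene in the order, was lower in 4 of 4 ENV pairs and in 3 of 4 LPS pairs, where the pair of replicates 1 ran the other way. In that LPS pair every gene from Mt-nd3 on was higher (0.16 to 0.49), so it did not show the order. With ENV, Mt-nd4l and Mt-nd5 were higher in 2 of 4 pairs and lower in 2. The order was noted after the values were seen, and the ENV and LPS sets are not independent here, so it is given as a description with no test. In microglia the changes followed another order: the means of the paired log2 CPM differences were lowest for Mt-atp6 (-1.23 with ENV, -1.59 with LPS) and nearest 0 for Mt-co1 with ENV (-0.38) and Mt-nd5 with LPS (-0.75). Next to Mt-atp6 in value came Mt-nd3, Mt-atp8, Mt-co2 and Mt-co3 with ENV (-1.06 to -1.01) and Mt-atp8, Mt-co2 and Mt-co3 with LPS (-1.52 to -1.36). Mt-co1 and Mt-co2, neighbours in the order, stood at -0.38 and -1.05 with ENV and at -0.77 and -1.37 with LPS. Astrocyte values of Mt-atp8 (4.69 to 18.4 CPM) were far under the microglial ones (66.4 to 342 CPM); the tables list different gene sets, and counts at this overlapping gene are uncertain.

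**Figure D2:**
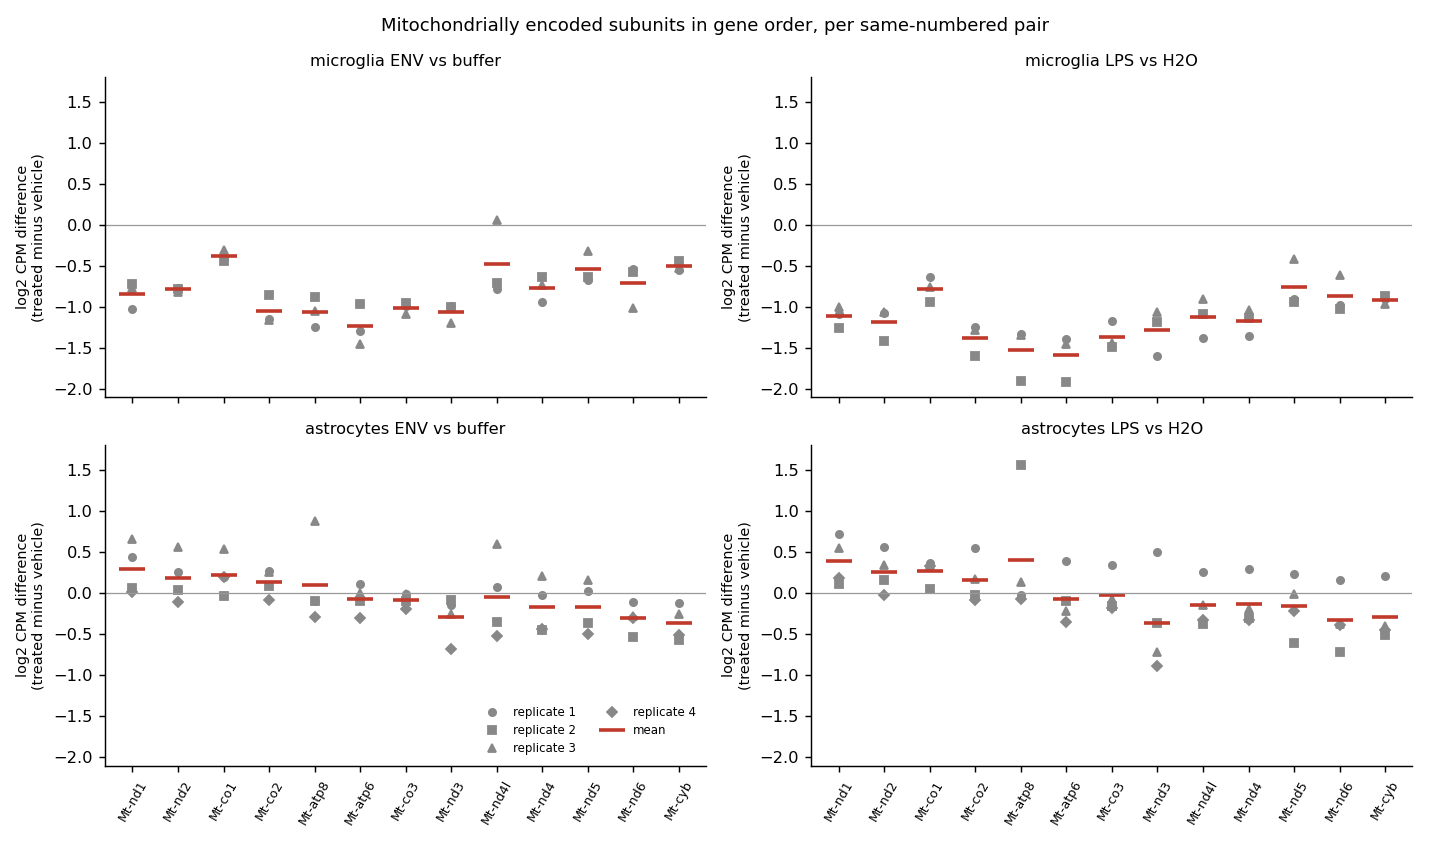
Log2 CPM difference, treated minus vehicle, of the 13 mitochondrial genes in their order on the mitochondrial DNA; grey markers are same-numbered pairs (3 in microglia, 4 in astrocytes) and red bars their mean. Microglial means lie between -0.38 and -1.23 with ENV and between -0.75 and -1.59 with LPS, while astrocyte means pass from positive at Mt-nd1 (0.29 and 0.39) to negative at Mt-cyb (-0.36 and -0.29).

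Among nuclear members in microglia few were called in the main setting. With ENV 71 of the 80 passed the filter on low counts; 3 rose and 0 fell, 4.23% and 0% of those tested beside 16.2% and 14.7% of all genes. Their median log2 change was 0.06, 42 positive and 29 negative, and at an unadjusted p under 0.05 there were 10, beside 43.1% of all genes. With LPS 5 rose and 2 fell of 71, beside 16.0% and 13.8% of all genes, with a median of 0.06, 44 positive and 27 negative; 16 had an unadjusted p under 0.05, beside 43.6% of all genes. These medians are relative to the median gene under TMM; with library totals as the only scaling they were -0.14 and -0.25 beside -0.23 and -0.33 over all genes, so no direction is drawn for the nuclear set as a whole.

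Uqcr10, a small subunit of complex III, was the clearest nuclear rise and opposite to every mitochondrial member. It was at 171, 179 and 197 CPM with ENV against 78.4, 90.4 and 111 CPM with buffer, and at 138, 163 and 164 CPM with LPS against 68.0, 69.4 and 85.0 CPM with H2O. No library of a stimulated group overlapped its vehicle, with log2 changes of 1.16 ± 0.16 and 1.37 ± 0.13 (edgeR adjusted p = 0.00232 and 0.0019). In astrocytes it did not pass, at -0.18 ± 0.08 with ENV and -0.32 ± 0.13 with LPS (edgeR adjusted p = 0.129 and 0.204). The difference between cell types was 1.34 ± 0.17 for ENV and 1.67 ± 0.19 for LPS (edgeR interaction test, adjusted p = 0.000381 and 0.000405). Zmat5, which overlaps Uqcr10 in the reference annotation, did not pass in microglia (0.12 ± 0.20 with ENV, 0.45 ± 0.21 with LPS; edgeR adjusted p = 0.688 and 0.156), and without strand information reads of overlapping genes could not be separated.

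The other nuclear rises belonged to complex I. Among them Ndufa3, an accessory subunit of the membrane arm, was at 56.7, 58.0 and 57.2 CPM with ENV against 34.9, 35.4 and 44.7 CPM with buffer (0.78 ± 0.14, edgeR adjusted p = 0.00716). With LPS it was at 32.97, 43.7 and 32.0 CPM against 29.4, 26.6 and 35.04 CPM with H2O, overlapping in CPM and called after TMM scaling (0.56 ± 0.16, edgeR adjusted p = 0.0416; 0.0792 with the replicate block). Tfpt, within 3 kb of Ndufa3, rose too (0.99 ± 0.18 with ENV, 1.11 ± 0.11 with LPS; edgeR adjusted p = 0.0078 and 0.00227), and whether reads were shared was not tested. Ndufa5 rose with LPS (53.2, 63.2 and 68.9 CPM against 41.1, 38.1 and 50.2 CPM with H2O; 0.83 ± 0.14, edgeR adjusted p = 0.00973), and so did Ndufa9 (79.4, 98.3 and 86.3 CPM against 72.9, 74.6 and 87.1 CPM with H2O; 0.48 ± 0.12, edgeR adjusted p = 0.0276; 0.0509 with the block). The H2O libraries of Ndufa5 lay below those with LPS, and those of Ndufa9 overlapped them in CPM.

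Nuclear falls in microglia were called with LPS alone, for Ndufb4 in complex I and Atp5mc2 in complex V, one of the genes for the ring subunit c of ATP synthase. Ndufb4 was at 14.9, 18.2 and 15.3 CPM with LPS against 35.6, 29.6 and 45.0 CPM with H2O (-0.88 ± 0.17, edgeR adjusted p = 0.0141). Atp5mc2 was at 89.5, 113 and 99.9 CPM with LPS against 194, 214 and 214 CPM with H2O (-0.73 ± 0.12, edgeR adjusted p = 0.00879). Neither overlapped. With ENV both had lower values without passing, -0.54 ± 0.18 and -0.55 ± 0.20 (edgeR adjusted p = 0.0624 and 0.0745); with the replicate block both were called (0.0335 and 0.0258), as were the rises of Ndufa5 (0.0415) and Ndufa9 (0.0488), which made 7 nuclear calls, 5 higher and 2 lower. The 3 nuclear genes called with ENV were all called with LPS.

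By complex, the median nuclear log2 changes in microglia stayed near 0. Complexes were assigned by symbol, so Ndufa4 is counted with complex I here. With ENV they were 0.06 for complex I (36 tested, 2 rose), -0.03 for complex II (4 tested, 0 called), 0.11 for complex III (7 tested, 1 rose), 0.05 for complex IV (10 tested, 0 called) and 0.11 for complex V (14 tested, 0 called). With LPS they were 0.06 (4 rose, 1 fell), 0.03 (0 called), 0.05 (1 rose), 0.09 (0 called) and 0.04 (1 fell). The count with ENV rests on 1 library. Buffer replicate 3 had the highest nuclear share of all libraries, 1.04%, and without it 31 nuclear members were called, 29 higher and 2 lower. No share of all genes without that library is set beside this count. With LPS it was 12 (9 higher, 3 lower) without the replicates 3 of both groups and 3 (2 higher, 1 lower) without H2O replicate 1.

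**Figure D3:**
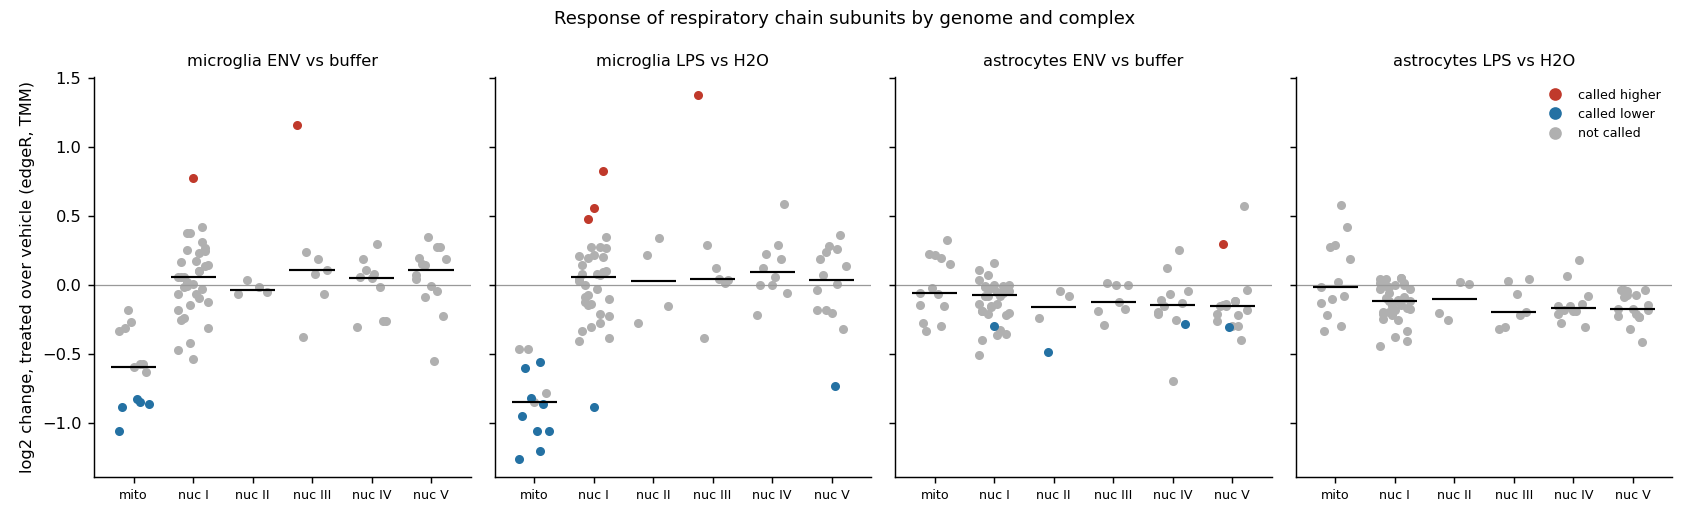
Log2 change (treated over vehicle, edgeR with TMM scaling) of each tested member reported here in the 4 comparisons, with the mitochondrial set first and nuclear members by complex I to V; black bars are medians over all tested members. Complexes follow the symbols, with Ndufa4 in complex I. The microglial mitochondrial medians are -0.59 and -0.84, and the medians of nuclear complexes lie between -0.19 and 0.11 in all 4 panels.

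The 250 bases before the annotated starts of 4 of these genes are shown because they rose (Uqcr10, Ndufa3) or fell (Ndufb4, Atp5mc2) in stimulated microglia. They are RefSeq sequences of the GRCr8 build, at chr14:83791915-83792164 on the minus strand, chr1:74515559-74515808 on the minus strand, chr11:76568928-76569177 on the plus strand and chr7:135678219-135678468 on the minus strand, given 5′ to 3′ in the direction of the gene. Capitals mark any of 4 motifs, searched on both strands: the NRF1 core GCATGCG, the ETS core CCGGAAG bound by GABP, the YY1 core AAGATGG and the CCAAT box.
Uqcr10: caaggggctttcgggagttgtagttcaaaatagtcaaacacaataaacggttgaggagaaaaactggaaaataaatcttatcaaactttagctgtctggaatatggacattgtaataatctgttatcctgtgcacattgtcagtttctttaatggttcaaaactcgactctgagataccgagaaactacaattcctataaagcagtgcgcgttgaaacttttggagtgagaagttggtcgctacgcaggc
Ndufa3: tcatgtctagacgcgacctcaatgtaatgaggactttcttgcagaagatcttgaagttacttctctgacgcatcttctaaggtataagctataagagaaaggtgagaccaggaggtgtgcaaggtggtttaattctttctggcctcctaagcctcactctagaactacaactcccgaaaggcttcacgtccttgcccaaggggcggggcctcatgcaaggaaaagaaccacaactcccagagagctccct
Ndufb4: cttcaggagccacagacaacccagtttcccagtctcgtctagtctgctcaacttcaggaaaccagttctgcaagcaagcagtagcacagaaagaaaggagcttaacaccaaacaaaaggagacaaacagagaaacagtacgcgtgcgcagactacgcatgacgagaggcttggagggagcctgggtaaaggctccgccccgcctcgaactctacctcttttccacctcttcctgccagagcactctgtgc
Atp5mc2: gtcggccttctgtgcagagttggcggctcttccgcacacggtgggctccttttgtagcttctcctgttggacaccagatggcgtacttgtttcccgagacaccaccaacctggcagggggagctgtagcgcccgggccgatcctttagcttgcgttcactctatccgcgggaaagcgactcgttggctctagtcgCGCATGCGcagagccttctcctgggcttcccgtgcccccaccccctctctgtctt
Of the 4, Atp5mc2 alone held a match, to the NRF1 motif. NRF1 and GABP are known activators of nuclear respiratory genes. Among 73 nuclear members with a promoter (of 84 symbols after numbered copies were merged), 15.07% held the NRF1 letters against 3.14% of 27457 promoters, 26.03% the ETS letters against 7.74%, 5.48% the YY1 letters against 4.63%, and 31.51% CCAAT against 34.29%. The NRF1 core overlaps its own reverse complement, which makes the run in Atp5mc2 1 base longer. A match is a description of the sequence and not a bound site.

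In astrocytes most nuclear members had slightly lower values after stimulation. With ENV 76 were tested: 65 of the log2 changes were negative, the median was -0.13 beside 0.02 over all genes, 4 fell and 1 rose, where 8.35% of all genes were called lower and 9.52% higher. Sdhc, a membrane anchor of complex II, fell most: 150, 174, 142 and 164 CPM with ENV against 225, 226, 239 and 197 CPM with buffer (-0.49 ± 0.10, edgeR adjusted p = 0.0143). The groups did not overlap. Ndufb5 of complex I (-0.29 ± 0.07), Atp5mf of complex V (-0.30 ± 0.08) and Cox6c of complex IV (-0.28 ± 0.08) fell at edgeR adjusted p = 0.0298, 0.0403 and 0.0491. Atp5if1, the inhibitor that stops ATP synthase from running backwards, rose: 120, 115, 121 and 115 CPM with ENV against 94.3, 98.8, 104 and 90.2 CPM with buffer (0.30 ± 0.08, edgeR adjusted p = 0.0381). With the replicate block Ndufb2 was called too (-0.37 ± 0.09, edgeR adjusted p = 0.0296).

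With LPS no nuclear member of 76 passed in astrocytes by edgeR (2.64% of all genes were called higher and 2.69% lower), with 10 at an unadjusted p under 0.05; DESeq2 called 8, all lower. Still 63 of 76 log2 changes were negative, with a median of -0.15 beside 0.03 over all genes, and all 17 tested members of complex V were below 0. With the replicate block 3 fell: Ndufb4 (-0.41 ± 0.10, edgeR adjusted p = 0.0383), Atp5mf (-0.32 ± 0.08, 0.0463) and Ndufa2 (-0.33 ± 0.09, 0.0488). The ENV calls rest on single libraries, since leaving out 1 of the 8 gave between 0 (without buffer replicate 3) and 6 calls: 1 without buffer 1, without buffer 2, without ENV 1 or without ENV 3, and 3 without buffer 4 or without ENV 4. Replicates 1 and 2 alone and replicates 3 and 4 alone gave 0 with ENV; with LPS replicates 1 and 2 alone gave 4.

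Markers of some other cells were lower on average in the stimulated astrocyte cultures. The 8 fibroblast and mural markers summed to 983 to 1894 CPM with ENV against 1511 to 6499 CPM with buffer (0 of 7 tested called), and the 6 neuronal markers to 258 to 429 CPM against 549 to 834 CPM (2 of 4 lower, none higher). With LPS none of these markers was called; the fibroblast and mural sum was 965 to 1824 CPM against 1557 to 5507 CPM with H2O, and the neuronal sum 279 to 436 CPM against 449 to 847 CPM. The astrocyte markers themselves summed to 4341 to 8014 CPM with ENV against 8318 to 11142 CPM with buffer (1 of 8 higher, 3 lower). With LPS they summed to 2348 to 7966 CPM against 5150 to 11127 CPM with H2O. Oligodendrocyte-lineage markers differed by less than their spread, at 108 to 253 CPM with ENV against 152 to 273 CPM with buffer. With LPS these were at 118 to 270 CPM against 149 to 259 CPM with H2O. Microglia and macrophage markers were at 37.4 to 284 CPM with ENV against 56.2 to 492 CPM with buffer. With LPS those were at 50.2 to 266 CPM against 131 to 460 CPM with H2O. Endothelial markers were at 4.18 to 8.29 CPM with ENV against 4.85 to 13.0 CPM with buffer. With LPS the endothelial sum was 3.31 to 5.99 CPM against 6.07 to 11.1 CPM with H2O. No marker of these lists was at 0 in astrocytes, and their part in the nuclear change was not tested.

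The responses of the cell types differed for 6 members with ENV, 5 of them tested within both cell types, where 14.8% of all genes were called in this contrast (6.80% higher, 8.01% lower in microglia). Beside Uqcr10, the microglial response was higher for Ndufa3 (0.77 ± 0.20, edgeR interaction test, adjusted p = 0.0231) and Ndufb6 (0.70 ± 0.20, adjusted p = 0.0343), and lower for Mt-co2 (-1.02 ± 0.26, adjusted p = 0.019) and Mt-atp6 (-1.01 ± 0.29, adjusted p = 0.0347). With ENV Ndufb6 was called in neither cell type alone. With the replicate block its change was 0.33 ± 0.13 in microglia and -0.40 ± 0.12 in astrocytes (edgeR adjusted p = 0.0986 and 0.0537). Of the 13 mitochondrial members 12 had a lower value in microglia than in astrocytes. With LPS 8 members passed, 7 of them tested within both cell types, beside 12.3% of all genes (5.28% higher, 7.06% lower): Uqcr10, Ndufa5 (0.89 ± 0.19, edgeR interaction test, adjusted p = 0.0106) and Ndufa3 (0.91 ± 0.27, adjusted p = 0.0455) were higher in microglia, and Atp5mc2 (-0.58 ± 0.15, adjusted p = 0.026), Mt-co2 (-1.26 ± 0.35, adjusted p = 0.0351), Mt-co3 (-1.10 ± 0.32, adjusted p = 0.0449) and Mt-atp8 (-1.79 ± 0.54, adjusted p = 0.0487) lower. The eighth, Cox4i2, passed the filter on low counts through astrocytes alone, with 17 counts over the 3 microglial LPS libraries and 1 over the 3 H2O libraries, and no difference is read from it. For Mt-atp8 much of the difference lies in 1 of the 4 astrocyte pairs, whose log2 CPM differences were -0.02, 1.56, 0.14 and -0.08; the microglial change alone was -1.20. Ndufa3 rests on astrocyte levels of at most 2.63 CPM. The number of members tested between cell types is not given, so nothing is read from 6 or 8 as a share of the set.

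With the replicate number as a block more differed between cell types, 14 with ENV (7 higher, 7 lower) and 16 with LPS (6 higher, 10 lower). No share of all genes with the block is set beside these counts. The added mitochondrial genes were Mt-co3, Mt-nd1, Mt-nd2, Mt-nd3 and Mt-atp8 for ENV (edgeR adjusted p from 0.00632 to 0.0314) and Mt-nd1, Mt-nd2, Mt-atp6, Mt-nd4, Mt-co1 and Mt-nd4l for LPS (0.00713 to 0.0453). The added nuclear genes, all with the higher response in microglia, were Atp5pb (edgeR adjusted p = 0.0331), Cox6c (0.0265) and Sdhc (0.0434) for ENV and Ndufa9 (0.0498) and Sdhc (0.0392) for LPS. Single libraries moved the ENV count from 1 (without microglial ENV replicate 1) to 22 (without microglial buffer replicate 3); it was 2 without astrocyte buffer 3, and 3 without microglial buffer 2, astrocyte buffer 1 or astrocyte ENV 1. The LPS count was 2 without microglial LPS 1, microglial H2O 2 or astrocyte H2O 3, 3 without astrocyte H2O 1, LPS 1 or H2O 4, 4 without microglial H2O 1, LPS 2, H2O 3 or astrocyte LPS 2, and otherwise up to 10. Within astrocytes the ENV and LPS responses differed for none of 15496 genes by edgeR (0%). At an unadjusted p under 0.05 there were 76, or 0.490%, among them 1 nuclear member and no mitochondrial one, and no other tool was run. Replicates 3 and 4 were close across the 2 sets, so this test cannot show that the responses are alike.

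The microglial vehicles give the scale of a difference between sets with no stimulus. In microglia, buffer against H2O called no gene by edgeR (0%; 1946 at an unadjusted p under 0.05, or 15.1%; no other tool was run), yet 70 of 71 nuclear log2 changes were positive with a median of 0.31, and 20 nuclear and 1 mitochondrial members had an unadjusted p under 0.05. In 35 of the 71 every buffer library was above every H2O library after scaling, beside 16.7% of all genes. Summed oligodendrocyte-lineage markers were at 186 to 255 CPM with buffer and 15.6 to 102.5 CPM with H2O, with none of 7 tested called, and their part was not tested. The offset between the 2 microglial vehicles is larger than the median nuclear change with either stimulus, so treated groups are read against their own vehicle alone. In astrocytes the nuclear median of buffer against H2O was 0.02 and the mitochondrial one 0.10, with no member at an unadjusted p under 0.05. No gene was called (0%), with 125 of 14876 at an unadjusted p under 0.05, or 0.840%, and no other tool was run. Replicates 3 and 4 of these 2 vehicles were nearly alike across the sets (chi-square per degree of freedom 4.72 and 3.58). This contrast therefore cannot give that scale for astrocytes.

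Members of a panel chosen for their roles mostly did not pass. The complex I core subunits Ndufs1 and Ndufv1 had log2 changes of 0.15 ± 0.10 and 0.06 ± 0.14 with ENV and -0.23 ± 0.14 and 0.05 ± 0.12 with LPS in microglia (edgeR adjusted p from 0.258 to 0.793). The succinate dehydrogenase flavoprotein Sdha was at -0.06 ± 0.10 and -0.28 ± 0.13, and the iron-sulfur subunit Sdhb at -0.02 ± 0.14 and 0.34 ± 0.13. Uqcrc1 and the Rieske protein Uqcrfs1 of complex III were at 0.24 ± 0.11 and 0.08 ± 0.15 with ENV. The catalytic ATP synthase subunits Atp5f1a and Atp5f1b were at 0.05 ± 0.13 and -0.04 ± 0.12 with ENV in microglia and at -0.21 ± 0.08 and -0.30 ± 0.11 in astrocytes. Ndufa4, now regarded as a subunit of complex IV, was at 0.06 ± 0.18 and 0.08 ± 0.16 with ENV and LPS in microglia and at -0.18 ± 0.07 and -0.19 ± 0.11 in astrocytes. Cox4i1, Cox6a1, Cox7a2 (astrocyte tables only) and Cox7a2l did not pass in any comparison in which they were tested.

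Tissue-specific isoforms were low, and their levels are set side by side across tables made with different gene lists. Cox4i2, the alternative of Cox4i1 known for its induction in low oxygen, was at 2.55 to 8.03 CPM across the 16 astrocyte libraries and at 0 to 0.279 CPM across the 12 microglial ones. Cox7a1, the contractile-muscle form, was at 1.18 to 2.18 CPM on group average in microglia and 0.413 to 0.672 CPM in astrocytes. Ndufa4l2 averaged at most 0.369 CPM and Cox6a2 at most 0.16 CPM in any group. Low values also set apart Ndufs6 (0.352 to 0.464 CPM on average) and Atp5mc1 (0.418 to 0.734 CPM) in astrocytes. Ndufa3 was low there too, with 358 counts over the ENV set and 398 over the LPS set against 16304 over all microglial libraries. All are widely used subunits, and no source used here gives the gene models behind these tables. Cox8a was not analysed here, and Ndufs6, Atp5mc1, Atp5f1c, Ndufa10 and Cox7a2 were not analysed in microglia. Genes of like name were listed beside some of these. Ndufs6l1 had 8194 counts over the astrocyte ENV set and 7136 over the LPS set, where Ndufs6 had 89 and 97. In microglia the numbered copies of Ndufa10l1 had 5210 and 26658 counts. How reads were divided between such genes was not tested, so the low or missing values do not show a silent gene.

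**Figure D4:**
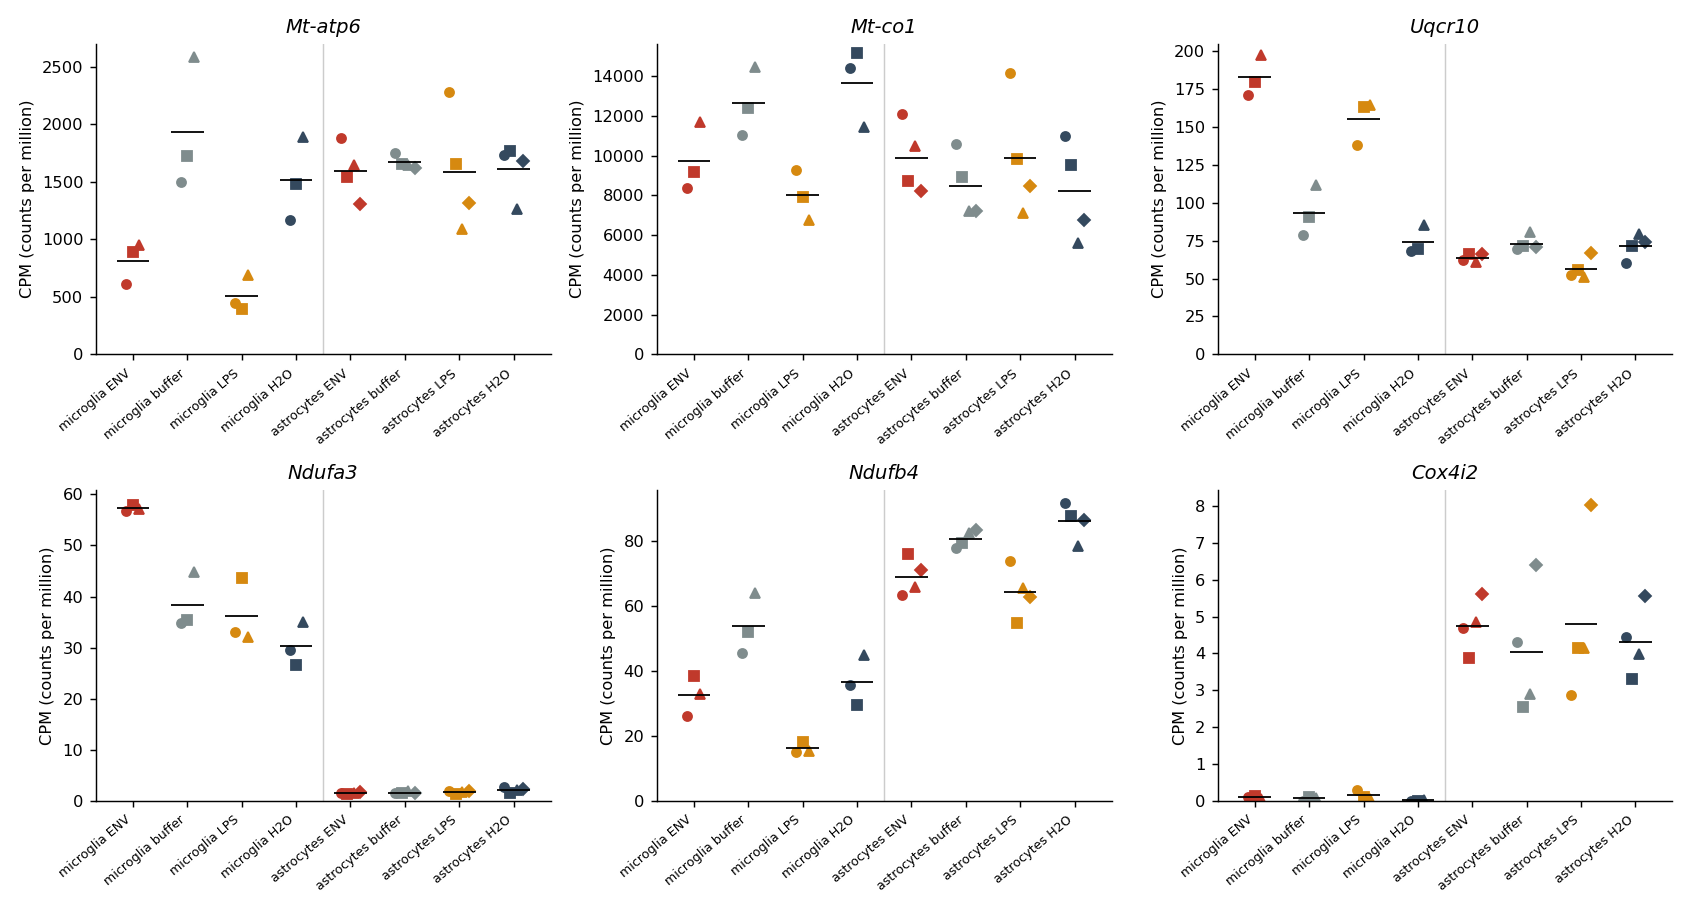
CPM of 6 members in every library of the 8 groups; marker shape gives the replicate number and bars are group means. Mt-atp6 and Ndufb4 lie lower and Uqcr10 higher in stimulated microglia than in their vehicles, and Cox4i2 is at 2.55 to 8.03 CPM in astrocytes against at most 0.279 CPM in microglia.

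Single genes that build or serve the chain were called in both directions. Over all genes 16.2% were called higher and 14.7% lower with ENV in microglia, and 16.0% and 13.8% with LPS; in astrocytes it was 9.52% and 8.35% with ENV and 2.64% and 2.69% with LPS. Several of the counts below are near those shares, and nothing is read from the lists as wholes. Of 18 assembly factors of complex IV in microglia, 4 rose and 2 fell with ENV and likewise with LPS, and the copper chaperone Sco1 led them (0.89 ± 0.14 with ENV, 1.5 ± 0.14 with LPS; edgeR adjusted p = 0.00422 and 0.0019). Sco1 rose in astrocytes as well (0.61 ± 0.13 with ENV, 0.52 ± 0.11 with LPS; edgeR adjusted p = 0.0149 and 0.0321), where it was the sole one of 16 called with LPS. Its levels were 34.0, 29.4 and 31.4 CPM in ENV microglia against 19.9, 17.9 and 20.9 CPM with buffer, with no overlap. Of 17 assembly factors of complex I, 1 rose and 2 fell with each stimulus in microglia: Foxred1 rose (1.18 ± 0.14 and 1.79 ± 0.31; edgeR adjusted p = 0.00155 and 0.0102), and Dmac1 fell (-0.82 ± 0.25 and -1.22 ± 0.18; edgeR adjusted p = 0.0437 and 0.0065). In astrocytes with ENV 2 of these 17 rose, Foxred1 among them, and Dmac1 fell; none was called with LPS. Complex III factors in microglia gave 2 higher and 1 lower of 5 with ENV and 1 of each with LPS, and complex V factors 1 higher of 4 with ENV and 1 of each with LPS. Of the complex II factors Sdhaf3 fell in LPS microglia, and Sdhaf1 rose in ENV astrocytes (1.38 ± 0.19, edgeR adjusted p = 0.0024).

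Of 20 genes for electron carriers and coenzyme Q, 5 rose and 2 fell in ENV microglia and 3 rose and 1 fell in LPS microglia, with none called in astrocytes by edgeR. Dhodh, which feeds electrons from pyrimidine synthesis to the chain, rose with both (1.22 ± 0.19 and 1.74 ± 0.24; edgeR adjusted p = 0.00381 and 0.00559), as did the coenzyme Q binding gene Coq10b (1.04 ± 0.18 and 1.18 ± 0.19; edgeR adjusted p = 0.00612 and 0.00771), while its paralogue Coq10a fell (-0.81 ± 0.16 and -0.86 ± 0.24; edgeR adjusted p = 0.00995 and 0.0408). Of 31 genes for the transcription, processing, translation and decay of mitochondrial RNA, 1 was called with ENV and 2 with LPS in microglia, all higher. Pnpt1, the polynucleotide phosphorylase that degrades and imports RNA in mitochondria, was at 120, 87.9 and 95.8 CPM with ENV against 33.2, 37.7 and 35.4 CPM with buffer, and at 131, 115 and 83.5 CPM with LPS against 34.7, 35.4 and 36.1 CPM with H2O (1.72 ± 0.16 and 1.95 ± 0.20; edgeR adjusted p = 0.00061 and 0.00224). It rose in ENV astrocytes as well (0.63 ± 0.15, edgeR adjusted p = 0.0243), where 4 of 32 such genes rose. The mitochondrial transcription factor Tfam did not pass in any comparison (-0.40 ± 0.14 in ENV and 0.24 ± 0.20 in LPS microglia; edgeR adjusted p = 0.0726 and 0.407).

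Of 11 regulators of mitochondrial biogenesis 9 were tested in microglia. Esrra, a nuclear receptor that drives oxidative genes with the Ppargc1 coactivators, rose with both stimuli: 53.6, 50.1 and 41.2 CPM with ENV against 19.0, 23.5 and 15.0 CPM with buffer, and 71.6, 75.2 and 121 CPM with LPS against 23.6, 31.9 and 19.8 CPM with H2O (1.54 ± 0.19 and 2.13 ± 0.29; edgeR adjusted p = 0.00155 and 0.00548). Gabpb1, a subunit of GABP, fell in ENV microglia (-0.38 ± 0.10, edgeR adjusted p = 0.0277) and rose in ENV astrocytes (0.34 ± 0.09, edgeR adjusted p = 0.0346). Ppargc1a fell in ENV astrocytes at a low level, with means of 0.75 CPM with ENV and 2.04 CPM with buffer (edgeR adjusted p = 0.023). No other regulator was called, and none was called with LPS in astrocytes. Cyc1 and Ndufab1, which are chain subunits by function but not by the naming rule, were not called in any of the 4 comparisons by edgeR; their largest log2 change was that of Cyc1 in LPS microglia (0.35 ± 0.15, edgeR adjusted p = 0.121).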

How the data were processed

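RNA of 28 libraries was sequenced after mRNA capture from 150 ng of total RNA, per the labels' protocols. The deposited files hold counts per gene symbol, whole numbers that the authors did not normalize; per the submitters' processing notes, HISAT2 and StringTie 1.3.3b were used with mRatBN7.2, in roles that they do not give, and no source used here states the annotation or the strand of counting. Members and lists were chosen with earlier results of these data known. Each treated group was tested against its vehicle with edgeR 4.0.16 (quasi-likelihood, robust, TMM, filterByExpr; limma 3.58.1, R 4.3.3) over all genes, 2-sided, and called at a Benjamini-Hochberg adjusted p under 0.05; DESeq2 1.42.0 was an alternative, and the fit was tested on simulated data. Differences between responses were interaction terms over genes joined by symbol. Sums over members were compared by exact permutation tests. The limit that a count of 0 allows, 3 counts, lay between 0.0702 and 0.126 CPM and covers counting error alone. Low levels of overlapping genes and numbered copies are uncertain. Same-numbered libraries deviated together in all 14 treated-vehicle pairs (correlation of deviations 0.26 to 0.64), which is where the pairing by replicate number comes from. In astrocytes LPS 2 deviated with H2O 1 (0.531) as much as with H2O 2 (0.529). LPS 1 with H2O 2 gave 0.397 and LPS 4 with H2O 3 gave 0.319, while LPS 4 with H2O 1 gave -0.559. These correlations therefore do not single out the same-numbered pairs in that set. The text names all mitochondrial members, a panel of subunits, and per complex the 2 largest called rises and falls from 10 CPM up, and up to 3 called genes per other list; further genes were named after their values were seen. For 1 nuclear member that is in the counts, values are not reported here. The reference table follows GRCr8 and served for names and neighbours.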

Additional observations from a re-analysis of the deposited data

Results flagged for a closer look

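Some members differed between the cell types in their response, where 14.8% of all genes were called with ENV and 12.3% with LPS. They are listed as single genes, and nothing is read from their number. The microglial minus the astrocyte log2 response to ENV was 1.34 for Uqcr10, 0.77 for Ndufa3, 0.70 for Ndufb6, -1.02 for Mt-co2 and -1.01 for Mt-atp6, each past the edgeR interaction test. For LPS it was 1.67 for Uqcr10, 0.91 for Ndufa3, 0.89 for Ndufa5, -0.58 for Atp5mc2, -1.26 for Mt-co2, -1.10 for Mt-co3 and -1.79 for Mt-atp8, of which the microglial change alone was -1.20 and 1 of 4 astrocyte pairs, at 1.56, carried much of the rest. Ndufb6 was called with ENV in neither cell type alone. Ndufa3 was low in astrocytes, with 358 counts over the ENV set and 398 over the LPS set. The ratio of mitochondrial to nuclear counts moved down in all 3 microglial pairs and up in all 4 astrocyte pairs with LPS, a difference of -0.97 on the log2 scale with an exact permutation p of 0.0571, the smallest possible.

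Of 112 sets of 4 values examined, each a member or sum in 1 of the 4 astrocyte groups, 6 held 1 library far from the others. Chance gives about 1 in 20 in independent sets, and these share the same 16 libraries. Replicate 3 of buffer was high for Ndufa3 (1.8 CPM against 1.42 to 1.45) and Uqcr10 (80.5 CPM against 69.4 to 71.3). Replicate 1 of ENV was high for Mt-co3 (2548 CPM against 1923 to 1985) and Mt-nd6 (149 CPM against 106 to 110). Replicate 3 of H2O was low for Mt-atp6 (1265 CPM against 1682 to 1763) and replicate 2 of H2O for Ndufa9 (72.2 CPM against 77.4 to 78.3).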

How the results depend on the processing

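Under alternatives, 1790 of 2021 values of named genes kept their call, 186 lost a call and 45 gained one. No value called in either setting reversed, and the direction of values called in neither was not compared. Of 345 counts and sums 277 were the same, 61 moved, 3 weakened and 4 reversed. A sum that changed sign was marked reversed only if its main test passed unadjusted or the shift reached the SD within groups. The cause of each move was not tested. Shares of all genes called are given for the main setting alone. A count under an alternative therefore does not show whether all genes gained or lost calls too. Nuclear calls in ENV microglia were 7 with the replicate block, 7 with DESeq2, 6 in a joint fit of 4 groups and 11 (3 higher, 8 lower) with library totals as the only scaling, the last chosen after seeing the data; mitochondrial calls were 9 with the block and 9 with library totals. In LPS microglia nuclear calls were 14 with DESeq2, 18 (3 higher, 15 lower) with library totals and 12 without the replicates 3. In astrocytes nuclear calls with ENV were 2 with no filter, 16 with DESeq2, 10 in the joint fit, and 0 in replicates 1 and 2 or 3 and 4 alone; with LPS they were 3 with the block, 8 with DESeq2, 3 in the joint fit and 4 in replicates 1 and 2. DESeq2 called 1 mitochondrial member in ENV astrocytes. Between cell types the block gave 14 for ENV and 16 for LPS; it changed no other member's call than those given.

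The summed nuclear change turned to 0.0576 per effective library and 0.10 as a mean of log2 CPM in ENV microglia, and to 0.0443 and 0.0931 in LPS microglia. The mitochondrial sum in microglia was -0.44 per effective library with ENV (exact permutation p = 0.2, groups overlapping), and -0.67 and -0.85 on these scales with LPS, and the ratio as a mean of log2 CPM was -0.70 with ENV and -0.94 with LPS. In ENV astrocytes the nuclear sum was -0.16 (exact permutation p = 0.0571) and -0.13 (p = 0.0857), -0.094 in replicates 1 and 2 and -0.26 in replicates 3 and 4; in LPS astrocytes it was -0.14 as a mean (p = 0.0571), -0.12 and -0.20.

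Leaving out 1 library gave 3 to 31 nuclear and 1 to 5 mitochondrial calls in ENV microglia, 3 to 8 and 3 to 10 in LPS microglia, and 0 to 6 nuclear calls in ENV astrocytes. It gave 1 to 22 members differing between cell types for ENV, 2 to 10 for LPS, and 0 to 2 between microglial vehicles (2 without H2O 3). The summed mitochondrial change ran from -0.78 to -0.50 (ENV) and -1.02 to -0.94 (LPS) in microglia, and from -0.04 to 0.16 and -0.09 to 0.25 in astrocytes; the ratio from -0.61 to -0.43, -0.82 to -0.63, 0.12 to 0.34 and 0.07 to 0.41; the nuclear sum from -0.22 to -0.03, -0.31 to -0.18, -0.21 to -0.14 and -0.18 to -0.14. Depth limits members near the level that a count of 0 allows, such as Cox4i2 in microglia.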
